A study of Homo sapiens with 8 samples.

Results

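The cytosolic ribosomal proteins are the structural proteins of the ribosome that translates nuclear-encoded mRNA. Genes were taken by name from the guide count table, as every symbol made of RPL or RPS and a number, with an optional A or X at its end, together with RPLP0, RPLP1, RPLP2 and RPSA. This gave 64 of 18052 gene names, 39 of the large (60S) subunit and 25 of the small (40S) subunit, and 187 guides. After low guides were left out, 181 guides remained, and 53 genes (33 large, 20 small) kept at least 2 guides and were tested. The other 11 genes had 1 guide in the table (RPL9, RPL15, RPL32, RPL34, RPL39, RPL41, RPS4X, RPS6, RPS20, RPS27 and RPS27A) and have guide values only.

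The screen asked which gene knockouts alter the response to EGFR kinase inhibitors of PC9, a lung adenocarcinoma line with an activating EGFR deletion. All libraries came from PC9 cells that expressed Cas9 and carried TKOv3, a pooled lentiviral library of guide RNAs against the human genome, so that most infected cells lost 1 gene. The groups were cells kept for 72 h in 10 µM erlotinib, cells kept for 72 h in 0.1 µM osimertinib, cells kept for 72 h in vehicle (untreated), and cells collected when drug was added (T0), with 2 libraries each. Only live cells were collected at the end, and the untreated cultures alone were passaged during the experiment. The doses of the drugs differ. Cells were infected in duplicate, but it is not stated whether the libraries of a group trace back to separate infections. The p-values below therefore reflect how far 2 libraries of a group lie apart, which can be technical in part.

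Each ribosomal subunit is built in the nucleolus from ribosomal RNA and its own set of proteins. The large subunit forms peptide bonds and carries the exit tunnel, whereas the small subunit binds mRNA and decodes it. Most of these proteins are needed for assembly of their subunit, so that loss of any of them slows the supply of ribosomes and the growth of the cell. Unassembled RPL5 and RPL11 bind the 5S ribosomal RNA and can inhibit MDM2, the ubiquitin ligase of p53. Vertebrate ribosomal protein mRNAs start with a C that leads a run of pyrimidines, the 5′ terminal oligopyrimidine (TOP) motif, through which their translation depends on mTOR, a kinase downstream of EGFR and PI3K.

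The start sites are shown because this element is shared by the genes and was not used to choose them. A run of at least 5 C or T bases that is led by a C and begins between 2 bases before and 3 bases after an annotated transcription start was searched for on the strand of the gene. It was found in 44 of the 51 genes with a RefSeq start site (86.3%) and in 3557 of 27305 genes overall (13%). By start site, it was found at 45 of 65 (69.2%) and at 3693 of 35116 overall (10.5%). The lines below give 15 bases on each side of a start for genes that the results turn on, with the run in capitals (RefSeq, GRCh38.p14). RPL37A lies at chr2:216498829-216498858 on the plus strand, RPL18 at chr19:48619164-48619193 on the minus strand, RPL11 at chr1:23691791-23691820 on the plus strand (another annotated RPL11 start, at chr1:23691764-23691793, has no such run), RPL22 at chr1:6199581-6199610 on the minus strand and RPS3 at chr11:75399503-75399532 on the plus strand.
RPL37A: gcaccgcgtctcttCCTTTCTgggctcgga
RPL18: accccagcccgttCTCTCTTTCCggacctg
RPL11: cggaagctccgctttCTCTTCCTgctctcc
RPL22: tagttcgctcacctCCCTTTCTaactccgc
RPS3: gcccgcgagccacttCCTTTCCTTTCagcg
A match describes the letters of the sequence and no measurement of translation. The run is present in genes whose knockouts differed widely in the screen, among them RPL18, with one of the larger losses without drug, and RPL22, with the smallest of the large subunit.

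Reads of a guide, as a share of all reads, served as the measure of how common its knockout cells were. A gene's level in a library was the median over its kept guides of log2 counts scaled to library size (CPM), set against the non-targeting guides of that library, and levels are given relative to the mean of the T0 libraries. A difference between groups in this level is the log2 fold change (L2FC). A gene is said to have fallen or risen where the adjusted p of limma over all 17761 genes was under 0.05. Total counts per library were between 32096281 and 39200466. Median counts per ribosomal protein guide were 186 and 198 under erlotinib, 189 and 213 under osimertinib, 182 and 204 in untreated, and 309 and 333 at T0. At T0 the median ribosomal protein guide was at 8.35 CPM, against 14.0 CPM for all targeting guides and 15.0 CPM for non-targeting guides. Cells had carried the guides for several days by then, and the plasmid library was not analysed here, so that early loss and uneven representation cannot be told apart.

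In untreated cells, knockouts of ribosomal protein genes became rarer over 72 h. Relative to T0, 51 of 53 genes fell (32 of 33 large, 19 of 20 small), and none rose (also none at an unadjusted p under 0.05). Of all genes tested, 46.3% fell in this comparison and 0.0338% rose, with a median L2FC of −0.16 relative to non-targeting guides, so that guides with a genomic target became rarer than guides without one over much of the library. The ribosomal protein genes had a median of −0.78 for the large subunit and −0.79 for the small subunit. When levels were set against the median of all targeting genes instead, 47 of 53 ribosomal protein genes fell, against 2015 of 17761 genes. Both untreated libraries lay below both T0 libraries for 53 of 53 ribosomal protein genes, as they did for 79.9% of all genes.

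**Figure D1:**
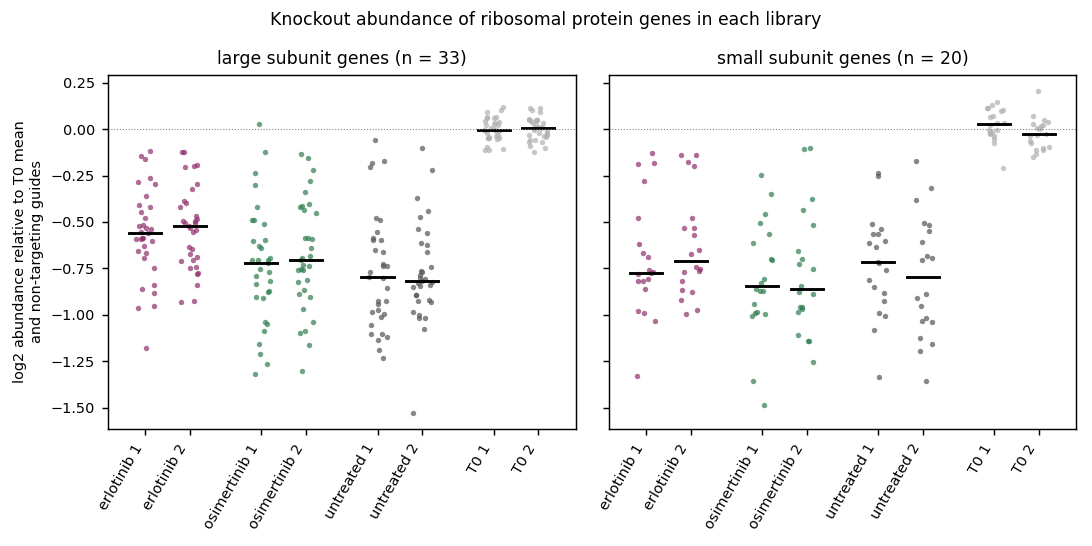
Level of each tested ribosomal protein gene (points) in each of the 8 libraries, in log2 units against non-targeting guides with the T0 mean at 0, with the median as a bar, for 33 large subunit genes (left) and 20 small subunit genes (right). Large subunit medians lie at −0.56 and −0.52 under erlotinib and at −0.80 and −0.82 in untreated cells, whereas small subunit medians lie at −0.77 and −0.71 under erlotinib and at −0.72 and −0.80 in untreated cells.

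The size of the loss varied widely among members. RPL8, which lies close to the peptidyl transferase centre, lay at −1.12 and −1.53 in untreated libraries, against −0.01 and 0.01 at T0 (L2FC −1.32 ± 0.10, SE, adjusted p = 1.03e-08). RPS2, near the mRNA entry channel, lay at −1.08 and −1.12 in untreated libraries, against 0.03 and −0.03 at T0 (−1.10 ± 0.06, adjusted p = 5.99e-10). In both genes the groups were separated by a gap wider than that between libraries of a group. RPL11, RPL18, RPL38, RPL37A, RPL7, RPL14 and RPL13 had L2FC between −1.08 and −1.01.

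At the other end were 6 genes with losses near the median of all genes. RPL22, which has a close paralog in RPL22L1, lay at −0.18 and −0.10 in untreated libraries, against −0.05 and 0.05 at T0 (−0.14, adjusted p = 0.0903). RPS12 lay at −0.23 and −0.17 in untreated libraries, against 0.13 and −0.13 at T0 (−0.20, adjusted p = 0.0677), so that the untreated libraries lay only just below the lower T0 library. RPL36A (−0.20), RPL4 (−0.25), RPS10 (−0.28) and RPL37 (−0.29) passed the test, but these calls rest on single libraries. Without T0 replicate 1 all 4 were lost, at −0.22 to −0.18 (adjusted p = 0.0909 to 0.140). Without untreated replicate 2 all 4 were lost as well, at −0.25 to −0.03 (adjusted p = 0.0619 to 0.804), with RPL4 at −0.03. Without T0 replicate 2 RPL36A alone was lost (−0.19, adjusted p = 0.0833), and without untreated replicate 1 RPL4 was at −0.43. The other 47 calls were kept whichever of the 8 libraries was left out.

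Single guides gave a coarser view of the same loss. The test of single guides (edgeR quasi-likelihood, adjusted over 67531 guides) is relative to the average guide, whereas the guide L2FC printed here are relative to non-targeting guides. By this test, 106 of 181 ribosomal protein guides fell in untreated cells (65 of 111 large, 41 of 70 small), against 5.92% of all guides. Fewer guides fell without T0 replicate 1 (68), T0 replicate 2 (65) or untreated replicate 2 (66). All kept guides fell for 13 genes, some of them for 33 genes and none for 7 genes. RPL10, a late-joining protein of the large subunit, shows how far guides of a gene can differ, with L2FC of −1.0, −1.02 and 0.02. Of the genes with 1 guide, RPL9 (−1.14), RPS27 (−0.98), RPL15 (−0.97), RPS4X (−0.96), RPL32 (−0.91) and RPS27A (−0.60), the last a fusion with ubiquitin, fell. The guides to RPL34 (−0.84), RPL41 (−0.46), RPL39 (−0.40), RPS20 (−0.39) and RPS6 (−0.36) did not pass the test. Many ribosomal protein genes have processed pseudogenes of near-identical sequence, and whether a guide matched more than 1 site was not tested.

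Under erlotinib, knockouts of some ribosomal protein genes were less depleted than in untreated cells. Relative to untreated cells, 17 of 53 genes rose, none fell and 36 did not pass the test, whereas 4.88% of all genes rose and 2.25% fell. At an unadjusted p under 0.05, 25 genes were higher and none was lower, whereas 12.9% of all genes were higher and 7.6% lower. Of the large subunit, 13 of 33 genes rose, with a median L2FC of 0.23. Of the small subunit, 4 of 20 rose, with a median of 0.11, and the median over all genes was 0.02. The small subunit median was 0.042 without erlotinib replicate 2 and 0.16 without untreated replicate 1, and the difference between the subunits was not tested. Both erlotinib libraries lay above both untreated libraries for 31 of 53 genes (21 large, 10 small), as they did for 30.4% of all genes. A higher level relative to untreated cells still meant loss relative to T0, since both erlotinib libraries lay below both T0 libraries for 53 of 53 genes, as they did for 73.8% of all genes.

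RPL37A, a small zinc-binding protein, rose the most. It lay at −0.29 and −0.19 under erlotinib, against −1.10 and −0.92 in untreated cells (L2FC 0.77 ± 0.11, SE, adjusted p = 0.000186). RPL18 lay at −0.52 and −0.55 under erlotinib, against −1.14 and −1.02 in untreated cells (0.54 ± 0.07, adjusted p = 4.5e-05). RPL7 lay at −0.59 and −0.50 under erlotinib, against −1.0 and −1.02 in untreated cells (0.46 ± 0.07, adjusted p = 0.000283). In these genes the erlotinib libraries stood clear of the untreated ones by several times the gap within a group. RPL8 lay at −0.88 and −0.71 under erlotinib, against −1.12 and −1.53 in untreated cells (0.53 ± 0.10, adjusted p = 0.00247), with wider gaps within the groups. The guides were uneven here too. RPL37A rests on 2 guides, one with an L2FC of 1.14 (adjusted p = 0.00114) and one with 0.38 (adjusted p = 0.201). By the test of single guides, 9 of 181 ribosomal protein guides rose and none fell, against 1.76% and 1.05% of all guides. The 9 became 2 without untreated replicate 1, 3 without untreated replicate 2, 4 without erlotinib replicate 1 and 3 without erlotinib replicate 2.

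All 3 genes of the P stalk, which recruits the GTPases of elongation to the large subunit, rose by the test. RPLP2 lay at −0.56 and −0.40 under erlotinib, against −0.98 and −0.77 in untreated cells (0.40 ± 0.08, adjusted p = 0.0040). RPLP0 lay at −0.36 and −0.20 under erlotinib, against −0.49 and −0.77 in untreated cells (0.35 ± 0.09, adjusted p = 0.0244). RPLP1 lay at −0.28 and −0.48 under erlotinib, against −0.60 and −0.85 in untreated cells (0.34 ± 0.09, adjusted p = 0.0223). For each of the 3 the groups did not overlap, but for RPLP0 and RPLP1 the gap between groups was smaller than the gaps within them. None of the 3 calls was kept on leaving out every library in turn. Of the proteins of the 5S particle, RPL11 rose and RPL5 did not pass the test, and they were not tested against each other. RPL11 lay at −0.66 and −0.78 under erlotinib, against −1.23 and −0.93 in untreated cells (0.37 ± 0.09, adjusted p = 0.0166). RPL5 lay at −1.18 and −0.63 under erlotinib, against −0.99 and −0.81 in untreated cells (−0.01 ± 0.14, adjusted p = 0.982). Its libraries overlapped, and with this error a rise like that of RPL11 could be missed.

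The other large subunit genes that rose were RPL35 (0.36), which lies at the tunnel exit, RPL14 (0.35), RPL10 (0.29), RPL7A (0.24) and RPL38 (0.23). Of the small subunit, RPS2 lay at −0.77 and −0.76 under erlotinib, against −1.08 and −1.12 in untreated cells (0.34 ± 0.06, adjusted p = 0.00234). RPS25, whose yeast homolog is dispensable, lay at −0.18 and −0.18 under erlotinib, against −0.63 and −0.38 in untreated cells (0.33 ± 0.08, adjusted p = 0.0217). RPS21 (0.27) and RPSA (0.24) also rose. In contrast, the lowest members were RPS23 (−0.13), RPL12 (−0.13) and RPS3 (−0.12), none of which passed the test (adjusted p = 0.285 to 0.435).

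Of these 17 calls, those of RPL37A, RPL18, RPL7 and RPS2 were kept whichever library was left out. Without erlotinib replicate 1, RPL10, RPL11, RPL14, RPL38, RPL7A, RPLP1, RPS21, RPS25 and RPSA were lost, at 0.21 to 0.35 (adjusted p = 0.0658 to 0.243). Without erlotinib replicate 2, RPL11, RPL35, RPL38, RPL7A, RPL8, RPLP0, RPLP2, RPS21, RPS25 and RPSA were lost, at 0.15 to 0.44 (adjusted p = 0.0559 to 0.389). Each drug library thus carried about as many calls as the other. Without untreated replicate 1, RPL11, RPL14, RPL35, RPL38, RPL7A, RPS21, RPS25 and RPSA were lost, at 0.21 to 0.35 (adjusted p = 0.0546 to 0.259). Without untreated replicate 2, RPL10, RPL35, RPL38, RPL7A, RPL8, RPLP0, RPLP1, RPS21 and RPSA were lost, at 0.18 to 0.36 (adjusted p = 0.0516 to 0.357). The T0 libraries enter through the shared estimate of spread and through the centring of each guide on its mean over libraries. Without T0 replicate 1, RPL38, RPL7A, RPS25 and RPSA were lost, at 0.22 to 0.24 (adjusted p = 0.0576 to 0.0772), and without T0 replicate 2, RPL38, RPL7A and RPSA were lost, at 0.20 to 0.24 (adjusted p = 0.0533 to 0.0880). With guides not centred before the median, 7 of the genes were called and RPS2 was at 0.16 (adjusted p = 0.354), so that RPL37A, RPL18 and RPL7 were the calls kept under all 19 alternatives.

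**Figure D2:**
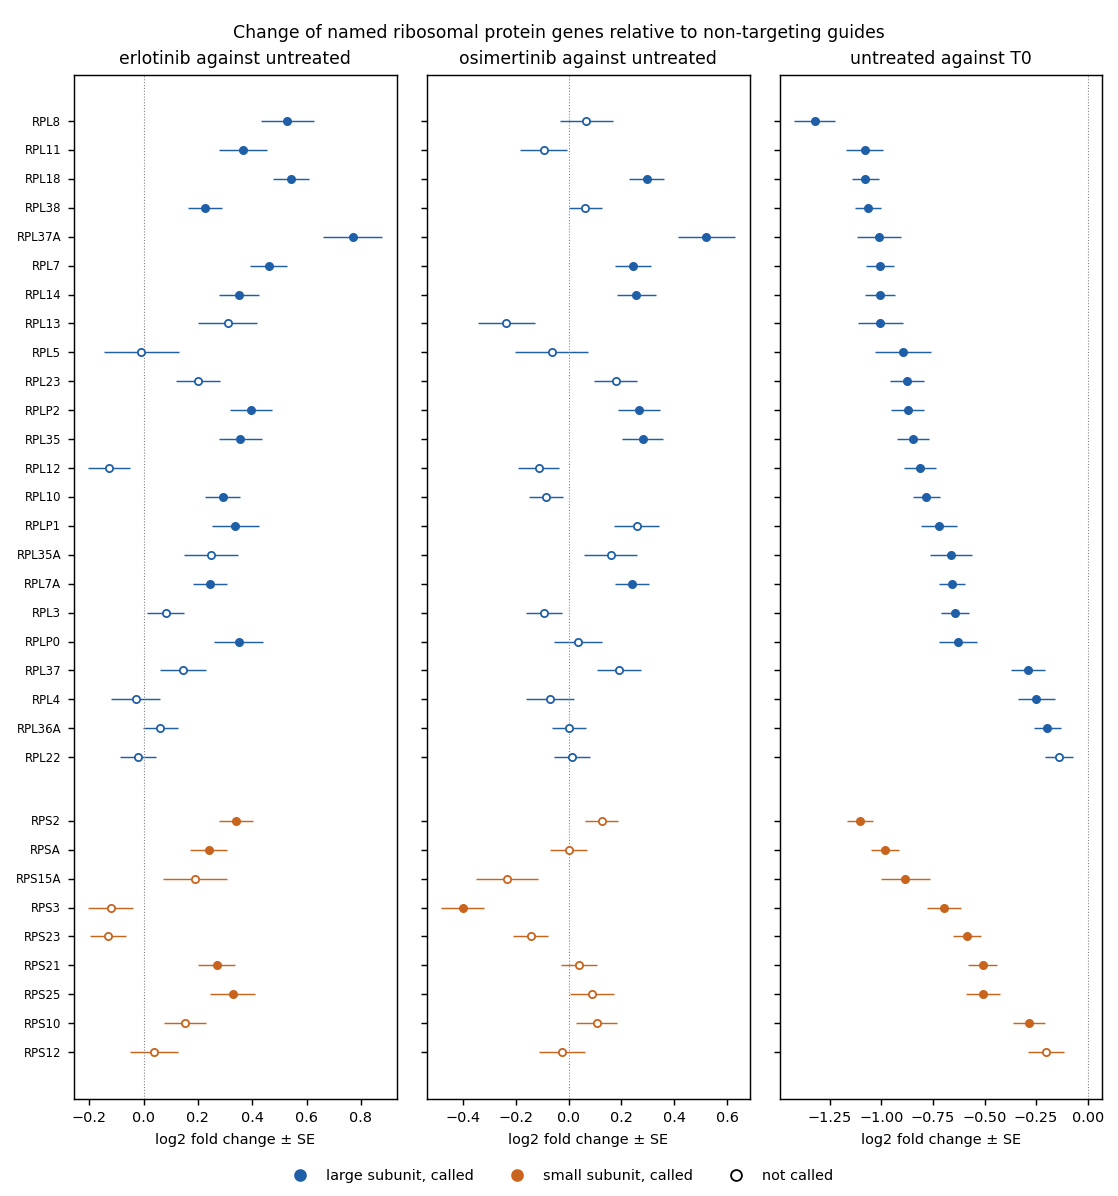
L2FC ± SE of 32 ribosomal protein genes named in the text (2 libraries a group), with large subunit genes above small subunit genes, each ordered by the change from T0 to untreated cells, and filled points for adjusted p under 0.05. Under erlotinib 13 large and 4 small subunit genes rose relative to untreated cells, under osimertinib 7 large subunit genes rose and RPS3 fell, and without drug RPL22 and RPS12 alone among those shown did not pass the test.

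Under osimertinib the ribosomal protein genes as a list stayed near their untreated level. Relative to untreated cells, 7 of 53 genes rose and 1 fell, whereas 5.31% of all genes rose and 4.83% fell. The 7 genes that rose were all of the large subunit, whose median L2FC was 0.06 (0.027 without untreated replicate 1, 0.032 without untreated replicate 2 and 0.040 without osimertinib replicate 2). No small subunit gene rose, 1 fell, and the median was −0.00, beside 0.01 over all genes. RPL37A lay at −0.71 and −0.28 under osimertinib, against −1.10 and −0.92 in untreated cells (0.52 ± 0.11, adjusted p = 0.00530). RPL18 lay at −0.75 and −0.81 under osimertinib, against −1.14 and −1.02 in untreated cells (0.30 ± 0.07, adjusted p = 0.00894). RPL35 (0.28), RPLP2 (0.27), RPL14 (0.26), RPL7 (0.24) and RPL7A (0.24) also rose, and each of the 7 had risen under erlotinib, a comparison that shares the untreated libraries.

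RPS3, which lines the mRNA entry channel and is ubiquitinated on stalled ribosomes, moved the other way. It lay at −0.94 and −1.25 under osimertinib, against −0.71 and −0.68 in untreated cells (−0.40 ± 0.08, adjusted p = 0.00466). The osimertinib libraries lay below both untreated libraries but were themselves far apart. Under erlotinib RPS3 lay at −0.82 and −0.82, so that its L2FC was −0.12 relative to untreated cells (adjusted p = 0.435). None of its 4 guides passed the test of single guides under osimertinib, with L2FC between −0.70 and −0.17. By that test 3 of 181 ribosomal protein guides rose and none fell, against 2.41% and 2.32% of all guides. Without osimertinib replicate 1, 6 rose, and without osimertinib replicate 2, 5 rose and 2 fell.

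Every one of the 8 calls under osimertinib was lost on leaving out some library. Without osimertinib replicate 2, RPS3 was at −0.24 (adjusted p = 0.0536) and RPL37A at 0.31, and RPL14, RPL35, RPL7A and RPLP2 were lost as well (adjusted p of the 6 from 0.0536 to 0.242). Without osimertinib replicate 1, RPL14, RPL7, RPL7A and RPLP2 were lost, at 0.19 to 0.27 (adjusted p = 0.0774 to 0.178). Without untreated replicate 1, RPL14, RPL18, RPL35, RPL37A, RPL7A and RPLP2 were lost, at 0.16 to 0.43 (adjusted p = 0.0757 to 0.306). Without untreated replicate 2, RPL14, RPL35, RPL7 and RPL7A were lost, at 0.18 to 0.29 (adjusted p = 0.0926 to 0.230). The erlotinib libraries enter through the shared spread and through the centring of each guide on its mean over libraries, so that values can move too. Without erlotinib replicate 1, RPL35 and RPL7 were lost, at 0.26 and 0.22 (adjusted p = 0.0508 and 0.0540), and without erlotinib replicate 2 RPL7 was lost, at 0.22 (adjusted p = 0.0541).

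The drugs were then set against each other, at their different doses. Relative to osimertinib, 5 of 53 genes were higher under erlotinib and none was lower, whereas 1.13% of all genes were higher and 0.242% lower. At an unadjusted p under 0.05, 20 were higher and none was lower, whereas 8.46% of all genes were higher and 4.69% lower. All 5 belong to the large subunit, whose median L2FC was 0.13, and the small subunit had a median of 0.11 with no call, beside 0.01 over all genes. The smallest adjusted p of the small subunit was that of RPS15A (0.42, adjusted p = 0.0899). Both erlotinib libraries lay above both osimertinib libraries for 27 of 53 genes (19 large, 8 small), as they did for 22.7% of all genes.

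RPL10 lay at −0.48 and −0.50 under erlotinib, against −0.84 and −0.90 under osimertinib (L2FC 0.38 ± 0.06, adjusted p = 0.00628). RPL11 lay at −0.66 and −0.78 under erlotinib, against −1.26 and −1.09 under osimertinib (0.46 ± 0.09, adjusted p = 0.0147). RPL8 lay at −0.88 and −0.71 under erlotinib, against −1.21 and −1.30 under osimertinib (0.46 ± 0.10, adjusted p = 0.0265). These 3 genes did not overlap between the drugs, and under osimertinib they lay within or next to the range of their untreated libraries. RPL13, which kept 2 guides, lay at −0.86 and −0.53 under erlotinib, against −1.32 and −1.16 under osimertinib (0.54 ± 0.11, adjusted p = 0.0173). For RPL13 the gap between the drugs was smaller than that between the erlotinib libraries. None of 181 single guides differed between the drugs by the edgeR test, against 0.218% of all guides higher and 0.111% lower, and 1 was higher without osimertinib replicate 1, as without osimertinib replicate 2.

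None of these 5 calls was kept on leaving out every library in turn. RPL10 was lost only without erlotinib replicate 1 (0.38, adjusted p = 0.0560), where RPL11 was lost too (0.39, adjusted p = 0.144). Without erlotinib replicate 2, RPL11, RPL13 and RPL8 were lost, at 0.38 to 0.52 (adjusted p = 0.0752 to 0.235). Without osimertinib replicate 1, RPL11 and RPL13 were lost, at 0.37 and 0.47 (adjusted p = 0.103 to 0.111), and without osimertinib replicate 2, RPL8 was lost, at 0.40 (adjusted p = 0.100). Of libraries outside the comparison, T0 replicate 1 changed the call of RPL8 (0.43 without it, adjusted p = 0.0589).

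**Figure D3:**
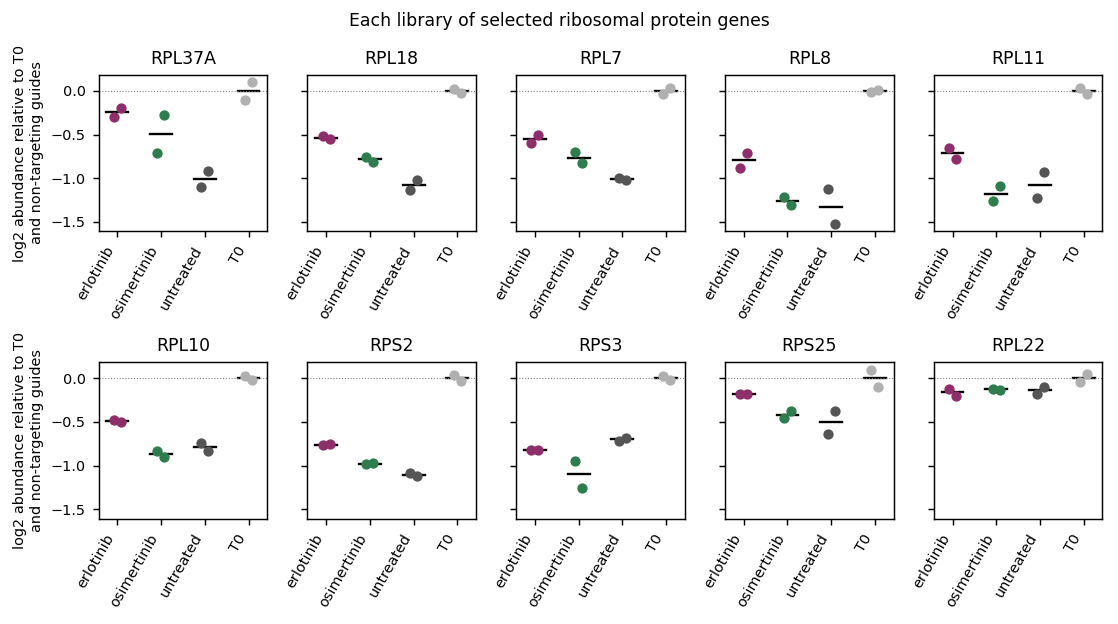
Level of 10 ribosomal protein genes in each library (points, 2 a group) with the group mean as a bar, in log2 units against non-targeting guides with the T0 mean at 0, for erlotinib, osimertinib, untreated and T0 from left to right. RPL37A, RPL18 and RPL7 were less depleted under both drugs than in untreated cells, RPL8, RPL11 and RPL10 under erlotinib alone by the test, and RPS3 was lower under osimertinib, at −0.94 and −1.25, than in untreated cells, at −0.71 and −0.68.

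Relative to T0, loss under each drug can be read beside the loss without drug. Under erlotinib 46 of 53 genes fell (29 large, 17 small), whereas 41% of all genes fell and 0.304% rose, and medians were −0.55 for the large subunit and −0.72 for the small subunit, beside −0.15 over all genes. Under osimertinib 50 of 53 genes fell (31 large, 19 small), whereas 43.9% of all genes fell and 1.03% rose, and medians were −0.74 for the large and −0.85 for the small subunit, beside −0.15 over all genes. By single guides, 63 of 181 fell under erlotinib (29 large, 34 small), against 5.37% of all guides, and 107 fell and 2 rose under osimertinib, against 8.97% and 4.59%. Under erlotinib the count that fell was 30 without T0 replicate 1, 27 without T0 replicate 2, 27 without erlotinib replicate 1 and 34 without erlotinib replicate 2. Under osimertinib it was 65 without T0 replicate 1 and 69 without T0 replicate 2. These comparisons share the T0 libraries with each other and with that of untreated cells. The lowest large subunit gene was RPL12 (−0.94) under erlotinib and RPL8 (−1.26) under osimertinib. RPL22, RPL37 and RPS10 did not pass the test under either drug, and RPL36A (−0.13), RPL37A (−0.24, adjusted p = 0.0793), RPS12 (−0.16) and RPS25 (−0.18) did not under erlotinib. RPL37A, with a loss of −1.01 in untreated cells, is the only one of these 7 that fell by more than 0.51 without drug. Of the calls relative to T0, 42 of 46 under erlotinib and 47 of 50 under osimertinib were kept whichever library was left out. Under erlotinib RPL4 (−0.24), RPLP0 and RPS21 were lost without T0 replicate 1 (lowest adjusted p = 0.109), RPL35A (−0.28) without T0 replicate 2, RPL4, RPLP0 and RPS21 without erlotinib replicate 1 (−0.28 to −0.18), and RPL4 (−0.28) without erlotinib replicate 2. Under osimertinib the calls of RPL36A, RPL4 and RPS12 depended on T0 replicate 1 (−0.29 to −0.09), that of RPL36A on T0 replicate 2 (−0.18), those of RPL36A and RPS12 on osimertinib replicate 1 (−0.15 and −0.11), that of RPL4 on osimertinib replicate 2 (−0.30) and that of RPS12 on erlotinib replicate 1 (−0.23). RPL37A was at −0.28 without osimertinib replicate 1, against −0.49 with it, and RPS12 at −0.36 without T0 replicate 2 and −0.35 without osimertinib replicate 2, against −0.23, and all stayed called.

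By the medians of their levels, the subunits were nearly equal without drug and apart under both drugs. In each library, the median level of the large subunit minus that of the small subunit was 0.21 and 0.19 under erlotinib, 0.13 and 0.16 under osimertinib, −0.08 and −0.02 in untreated cells, and −0.03 and 0.03 at T0. Libraries under either drug thus did not overlap those of untreated cells or T0. Large subunit medians were −0.56 and −0.52 under erlotinib, −0.72 and −0.70 under osimertinib, and −0.80 and −0.82 in untreated cells. Small subunit medians were −0.77 and −0.71 under erlotinib, −0.85 and −0.86 under osimertinib, and −0.72 and −0.80 in untreated cells. The small subunit thus overlapped between erlotinib and untreated cells, whereas the large subunit did not overlap between any of the 3. Medians of the change per gene gave less. Relative to untreated cells, the large subunit median exceeded the small by 0.12 under erlotinib and 0.06 under osimertinib. The median change of the small subunit under osimertinib was −0.00, although its level medians lay below those of untreated cells. With 33 and 20 genes that vary widely within each subunit, and 2 libraries a group, these differences are a description and carry no test.

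A knockout that slows growth can lose less ground in a culture that itself grows less, so each gene was also set against the loss of genes outside the ribosome. Whether growth accounts for any of these values was not tested. Over 158 genes of the proteasome, spliceosome core, RNA polymerases, aminoacyl-tRNA synthetases and DNA replication, the median L2FC relative to T0 was −0.65 under erlotinib, −0.77 under osimertinib and −0.74 in untreated cells. The loss without drug was multiplied by the ratio of these values (0.888 for erlotinib and 1.04 for osimertinib) before it was subtracted from the loss under drug. The test took the ratio as fixed, so that its own error is not in the p-values. The lists behind it also differed. Medians under erlotinib and in untreated cells were −0.63 and −1.03 for aminoacyl-tRNA synthetases and −0.66 and −0.91 for RNA polymerases. They were −0.58 and −0.74 for DNA replication, −0.64 and −0.63 for the proteasome, and −0.76 and −0.70 for the spliceosome core. On this scale 9 of 53 genes were higher under erlotinib and none was lower, whereas 3.55% of all genes were higher and 3.52% lower. They were RPL37A (0.66), RPL18 (0.42), RPL8 (0.38), RPL7 (0.35), RPLP2 (0.30), RPS25 (0.27), RPL35 (0.26), RPL14 (0.24) and RPS2 (0.22). Under osimertinib 8 large subunit genes were higher and RPS3 was lower (−0.37, adjusted p = 0.00866), whereas 5.72% of all genes were higher and 4.23% lower. Of these, RPL37A (0.56) and RPL18 (0.34) were the highest.

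The direction of this comparison depends on the genes that set the scale. With the ratio taken from ribosome assembly factors (0.699 for erlotinib and 0.896 for osimertinib), 2 genes were higher and 7 lower under erlotinib, and 1 was higher and 6 lower under osimertinib. A smaller ratio lowers the value of every gene that was lost without drug, and shares over all genes are not given for this scale. These counts are therefore no result about ribosomal protein genes in particular. Of the calls made with the first scale, RPL37A (0.46) and RPL18 (0.22) remained for erlotinib, and RPL37A (0.42) and RPS3 (−0.47) for osimertinib. On the first scale, the erlotinib calls of RPL37A, RPL18 and RPL7 were kept whichever library was left out. The other 6 were lost at values from 0.16 to 0.35, 5 of them without T0 replicate 1, 5 without erlotinib replicate 1, 6 without erlotinib replicate 2, 5 without untreated replicate 1 (where RPL8 stayed, at 0.58), 4 without untreated replicate 2 and RPS25 alone without osimertinib replicate 1. For osimertinib each of the 9 calls was lost in some refit: 6 without osimertinib replicate 2 (RPS3 at −0.22, and RPL37A still called at 0.34), 7 without untreated replicate 1 (RPS3 at −0.38, and RPLP1 still called at 0.43), 6 without untreated replicate 2 (RPS3 at −0.36), RPL7 without osimertinib replicate 1 (0.28) and RPLP1 without T0 replicate 1 (0.29).

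Members with special features were described by the lists they belong to. Of 5 tested genes with a coding paralog in the genome (RPL3, RPL7, RPL10, RPL22 and RPL36A), 4 fell in untreated cells, with a median of −0.64, whereas 46.3% of all genes fell. A list of paralogs, RPL3L, RPL10L, RPL22L1, RPL26L1 and RPS27L, had a median of −0.16, the same as all genes. Of these, 2 of 5 fell (RPL10L and RPL26L1), a share close to that over all genes. The 2 lists are not matched gene by gene, since RPL26 and RPS27 were not tested. The list of genes with a homolog dispensable in budding yeast may not be complete. Of its 3 tested genes, RPL38 (−1.07) and RPS25 (−0.51) fell in untreated cells and RPL22 did not pass the test. RPL10 and RPL36A, on the X chromosome, lay at −0.78 and −0.20. GNB2L1 and FAU encode ribosomal proteins that the name rule leaves out, and both fell in untreated cells. GNB2L1, the older symbol of the small subunit scaffold RACK1, was at −1.03 and FAU at −0.94. Relative to untreated cells GNB2L1 rose under erlotinib (0.43 ± 0.07, adjusted p = 0.000421), with −0.63 and −0.57 under erlotinib against −1.03 and −1.04 in untreated cells.

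The factors that build and service ribosomes were set beside the proteins. Calls of genes on other lists, GNB2L1 included, were not checked by leaving out libraries, unlike those of the tested ribosomal protein genes. Of all genes, 4.88% rose and 2.25% fell under erlotinib relative to untreated cells, and 5.31% rose and 4.83% fell under osimertinib. Under erlotinib 30 of 42 assembly factors of the 60S subunit rose relative to untreated cells (median 0.37), against 13 of 55 of the 40S subunit (median 0.16). In the 60S list SBDS, which releases an anti-association factor from new large subunits, rose by 1.04 and its partner GTPase EFTUD1 (EFL1) by 0.85. Under osimertinib 16 of 42 assembly factors of the 60S subunit rose and 1 fell (median 0.17), whereas 7 of 55 of the 40S subunit fell and none rose (median −0.03). In untreated cells these lists had medians of −0.81 and −0.98 relative to T0. Translation initiation factors had a median of 0.25 under erlotinib, where 14 of 27 rose and EIF1 fell (−0.44), and of 0.01 under osimertinib, where 3 rose and EIF1 fell (−0.74).

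Factors that rescue stalled ribosomes or escort single ribosomal proteins were described gene by gene. PELO, which splits stalled ribosomes, lay at −0.09 and −0.11 under erlotinib and at −0.54 and −0.42 under osimertinib, against −0.99 and −1.14 in untreated cells. It rose under erlotinib by 0.96 (adjusted p = 2.55e-07) and under osimertinib by 0.58, and the drugs differed by 0.38 (adjusted p = 0.0116). None of the other 5 rescue factors (HBS1L, ZNF598, ASCC3, NEMF and LTN1) rose or fell under either drug relative to untreated cells. Of 5 dedicated chaperones of ribosomal proteins, BCCIP, whose yeast homolog escorts the homolog of RPL23, lay at −0.42 and −0.48 under erlotinib and at −0.85 and −0.84 under osimertinib, against −1.19 and −1.10 in untreated cells (erlotinib 0.70, adjusted p = 2.24e-06, and osimertinib 0.30, adjusted p = 0.00653). The other 4 chaperones, GRWD1, HEATR3, TSR2 and PDCD2, did not pass the test under erlotinib (0.01 to 0.22, adjusted p = 0.137 to 0.943), and of them GRWD1 rose under osimertinib (0.33, adjusted p = 0.0182). RPL23 itself lay at −0.67 and −0.69 under erlotinib, against −0.77 and −0.99 in untreated cells, and did not pass the test.

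Other gene lists give the range in which these medians stand. Relative to untreated cells, medians under erlotinib were 0.33 for aminoacyl-tRNA synthetases (11 of 20 rose), 0.25 for RNA polymerase subunits (11 of 24 rose), 0.14 for elongation, termination and recycling factors, 0.13 for mitochondrial ribosomal proteins (7 of 74 rose), 0.11 for DNA replication, 0.05 for the proteasome and −0.09 for the spliceosome core (5 of 40 fell). Olfactory receptors, genes that these cells are not known to use, had a median of −0.01. In the same comparison the large subunit was at 0.23 and the small subunit at 0.11, the value that moved without single libraries. Under osimertinib the medians of these lists were between −0.16 for the proteasome (9 of 31 fell) and 0.06 for RNA polymerase subunits (7 of 24 rose), with the large subunit at 0.06 and the small subunit at −0.00. Mitochondrial ribosomal proteins, which serve a separate ribosome, had a median of −0.22 relative to T0 in untreated cells.

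**Figure D4:**
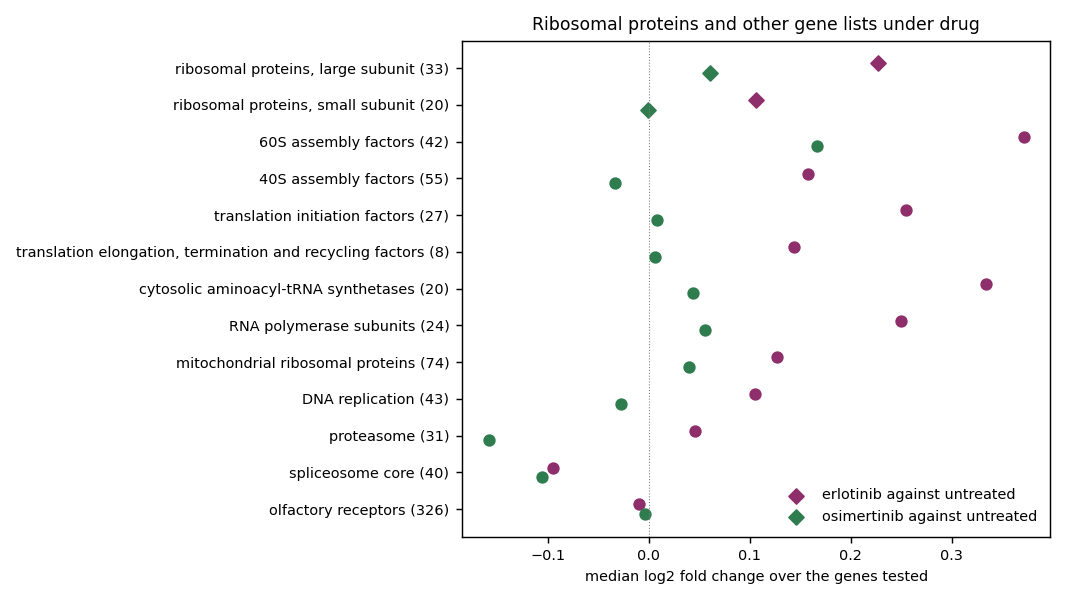
Median L2FC relative to untreated cells over the tested genes of each list (number of genes in parentheses) under erlotinib and osimertinib, with ribosomal proteins as diamonds and other lists as circles. Under erlotinib the large subunit lies at 0.23 and the small subunit at 0.11, between assembly factors of the 60S subunit at 0.37 and the spliceosome core at −0.09.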

How the data were processed

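The authors deposited raw counts of reads per guide, with no normalization, for PC9-Cas9 cells in 4 groups of 2 libraries. Per the methods, guides were amplified by PCR from genomic DNA, without molecular identifiers, and reads were mapped to the library with a single mismatch allowed. The aligner is given differently in the sources (Bowtie2 in the methods, Bowtie in the processing notes). Since PCR copies are not independent, counts set counting error only. An arm with more osimertinib was not analysed here.

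Of 71090 guides, 4 with an unrestorable symbol and the lowest 5% by mean normalized count (under 46.0 reads) were left out, which left 67531. Another 49 symbols damaged by a spreadsheet were restored. Counts were converted to log2 CPM (TMM, prior count 1; edgeR 4.0.16, R 4.3.3), and each guide was centred on its mean over 8 libraries. A gene's value was the median of its guides (at least 2) minus the median of non-targeting guides (138 kept). All groups were fitted together in limma 3.58.1 (lmFit and eBayes, 4 residual degrees of freedom), with two-sided p-values adjusted over 17761 genes by Benjamini-Hochberg at 0.05. Guides were tested with edgeR's quasi-likelihood test on deposited counts (common dispersion 0.00537). The methods' empirical p draws non-targeting guides and so measures spread between guides, and it was not used. Alternatives were other centring, guide filter, prior count, mean over guides, uncentred guides, edgeR and DESeq2 1.42.0 on counts summed per gene, a replicate block and leaving out each library. Both tests were first run on simulated counts with known changes. All guides of a gene changed alike there, at the common dispersion, whereas guides of a gene often differed widely in the data. The simulation therefore does not show how the tests behave on uneven guides.

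The members and gene lists were chosen with earlier results of these data known. Named genes are the 10 largest called changes without overlap in each direction and comparison, calls between the drugs, members of special groups, the extremes of each subunit, and up to 3 extremes of other lists. Further members were named after their values were seen. Values of some genes are not reported here.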

Additional observations from a re-analysis of the deposited data

Results flagged for a closer look

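Of the ribosomal protein genes, 5 differed between the drugs in a direct test of erlotinib against osimertinib (limma, adjusted over all genes), all of them higher under erlotinib, and 4 are given here. The L2FC was 0.54 for RPL13 (adjusted p = 0.0173), 0.46 for RPL8 (adjusted p = 0.0265), 0.46 for RPL11 (adjusted p = 0.0147) and 0.38 for RPL10 (adjusted p = 0.00628). The drugs were given at different doses, so compound and dose cannot be told apart. Each call was lost on leaving out at least 1 library, and none of the single guides to these genes passed the test between the drugs.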

How the results depend on the processing

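Each comparison was refitted under 19 alternatives (20 on the scale of other essential genes). Of the called ribosomal protein genes, RPL10 alone reversed, to 0.11 (adjusted p = 0.319) under erlotinib relative to T0 with guides not centred before the median. Calls kept under every alternative were 46 of 51 for untreated cells, 39 of 46 for erlotinib and 46 of 50 for osimertinib relative to T0, 3 of 17 for erlotinib and 0 of 8 for osimertinib relative to untreated cells, and 0 of 5 between the drugs. Centring moved the size of the losses relative to T0. With levels centred on all targeting genes, on olfactory receptors, or not centred (DESeq2 size factors, TMM), large subunit medians were −0.61, −0.66, −0.61 and −0.61 in untreated cells relative to T0, −0.40, −0.41, −0.39 and −0.39 under erlotinib, and −0.58, −0.61, −0.58 and −0.57 under osimertinib. Small subunit medians were −0.62, −0.66, −0.62 and −0.61 in untreated cells, −0.56, −0.58, −0.56 and −0.56 under erlotinib, and −0.69, −0.72, −0.69 and −0.68 under osimertinib. Of all genes, 8223 were called between untreated and T0 and between 1998 and 2384 under these 4 settings. With all guides kept, the small subunit median was −0.74 in untreated cells and −0.91 under osimertinib relative to T0, and 3 genes differed between the drugs. With the mean over guides, it was −0.79 under osimertinib relative to T0, 0.019 for osimertinib relative to untreated cells, and 0.075 between the drugs, where 10 genes were called. With guides not centred, small subunit medians were −0.73 (untreated) and −0.77 (osimertinib) relative to T0 and 0.15 (erlotinib relative to untreated), the large subunit median was −0.64 under osimertinib relative to T0, and 7 genes were called under erlotinib, 4 under osimertinib and 4 under osimertinib on the scale of other essential genes. For osimertinib relative to untreated cells, 5 genes were called with edgeR on summed counts and 4 with DESeq2, and the small subunit median was 0.0055 with olfactory receptors and 0.000566 with a prior count of 5. The cause of these shifts was not tested.

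Leaving out each library in turn gave 47 to 52 calls for untreated cells, 43 to 48 for erlotinib and 47 to 51 for osimertinib relative to T0, 9 to 17 for erlotinib and 4 to 8 for osimertinib relative to untreated cells, 2 to 5 between the drugs, and 4 to 13 (erlotinib) and 4 to 11 (osimertinib) on the scale of other essential genes. Large subunit medians were −0.82 to −0.77, −0.57 to −0.52 and −0.75 to −0.70 for untreated, erlotinib and osimertinib relative to T0, 0.18 to 0.24 and 0.03 to 0.06 for erlotinib and osimertinib relative to untreated cells, and 0.091 to 0.18 between the drugs. Small subunit medians were −0.82 to −0.70, −0.78 to −0.71 and −0.86 to −0.82, then 0.042 to 0.16 and −0.020 to 0.025, and 0.076 to 0.11. Single guides called were 65 to 119, 27 to 76 and 65 to 111, then 2 to 13 and 2 to 7, and 0 to 1.

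Replicate numbers did not pair the samples (correlation of same-numbered deviations from −0.0035 to 0.0164). With the replicate number as a block, 51, 47 and 50 genes were called for untreated, erlotinib and osimertinib relative to T0, 18 and 9 for erlotinib and osimertinib relative to untreated cells, and 5 between the drugs. With 2 libraries a group, depth and replication limit small changes, and a gene that missed the threshold is not shown to be unaffected.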
